A study of Homo sapiens with 2 samples.

Results

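The genes of the proteasome were followed in MDA-MB-231 cells with and without knockdown of RBMS1. They were taken by name as the protein-coding genes of GENCODE release 29 whose symbols begin with PSMA, PSMB, PSMC, PSMD, PSME, PSMF or PSMG, with the interferon-inducible subunits PSMB8 and PSMB9 left out. This gave 47 genes of the 49627 genes listed in either library, and 45 of them had a mean level of at least 1 FPKM, as did 11186 genes in all. FPKM is a level corrected for transcript length (fragments per kilobase) and for the mapped fragments of each library. Of the 47 genes, 46 encode subunits, activators, an inhibitor or assembly chaperones of the proteasome. The remaining gene, PSMC3IP, carries the name because its product was found as a partner of PSMC3. It acts in meiotic recombination and is no proteasome subunit. It was placed in no subcomplex but stays in the counts over all 45 genes. PSMA8 and PSMB11, the subunits of the testis and the thymic cortex, were listed at 0 in both libraries.

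The proteasome breaks down proteins that carry chains of ubiquitin. Its barrel-shaped 20S core has outer rings of alpha subunits, which gate the entry, and inner rings of beta subunits, some of which hold the cutting sites. The 19S regulatory particle caps the core, where a ring of ATPases unfolds the substrate and the non-ATPase subunits bind ubiquitin and remove it. Other activators can take the place of the 19S particle, and dedicated chaperones help both particles to assemble. Tumour cells make large amounts of protein, and many depend on the proteasome.

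The study dealt with the RNA-binding protein RBMS1, the immune checkpoint ligand PD-L1 and its glycosylation in triple-negative breast cancer. MDA-MB-231 is an established human line of that type, with a mesenchymal appearance, and it was grown in L15 medium with serum. RNA-seq of total RNA was deposited for 1 library labelled plko_S1, from cells with RBMS1 knocked down, and 1 library labelled plko_ctl, from control cells. In the study's methods, stable knockdown was made with lentiviral short hairpin RNA in the pLKO.1 vector and the controls carried pLKO.1; the sources used here do not say which hairpin was sequenced, and the lines are infected populations of 1 cell line. Each group thus held 1 library, without replicates, and no test between groups could be made. Every comparison below describes these 2 libraries. The only error at hand is the 95% interval that Cufflinks gives for each transcript within a library, added up over the transcripts of a gene. It does not cover the variation between cultures.

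The targeted gene was looked at first. RBMS1 had 3.76 FPKM with knockdown and 24.1 FPKM in control cells, so that 15.6% of its control level was left, a log2 ratio of −2.40. All log2 ratios of FPKM were taken as knockdown over control after adding 1 FPKM to both values. The markers of the line had the pattern of its labels. VIM, CD44, KRT8, KRT18 and AXL lay between 122 and 563 FPKM in both libraries, and ESR1, PGR and CDH1 were at or below 0.0996 FPKM. ERBB2 was at 7.50 FPKM with knockdown and 7.005 FPKM in the control, and EPCAM at 1.93 and 3.66 FPKM. The leukocyte and endothelial genes PTPRC, CD3E, CD68, PECAM1 and CDH5 did not exceed 0.115 FPKM. The number of reads is unknown. Coverage per FPKM was 1.09 times as high in the knockdown library as in the control library, so both were of similar depth.

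The proteasome genes were strongly expressed and differed little between the libraries. Of the 45 genes above the filter, 30 were among the top 10% of all genes by level with knockdown and 33 in the control. None reached a 2-fold difference in either direction, where 5.76% of the 11186 genes and 3.63% of the 4875 genes with a mean of at least 10 FPKM did, nor did any by the fragment abundance described below, where 5.78% and 2.54% did. All 45 genes had a mean of at least 10 FPKM, so the latter share is the closer background. The median log2 ratio was −0.04, against 0.02 over all genes and 0.03 over the genes with at least 10 FPKM. The ratios ran from −0.77 for PSMA2 to 0.45 for PSMG4. Lower values were found for 25 genes and higher values for 20. This split leaned further to lower values when the libraries were scaled to the same median or to the same upper quartile, with 30 of 45 genes lower. Summed over the 45 genes, the level was 3215 FPKM with knockdown and 3455 FPKM in the control, a ratio of 0.930. Without PSMC3IP, 24 of 44 genes were lower, the median log2 ratio was −0.02 and the ratio of the sums 0.932. In RNA from a whole culture, a lower level in every cell and a smaller share of cells with the transcript cannot be told apart.

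**Figure D1:**
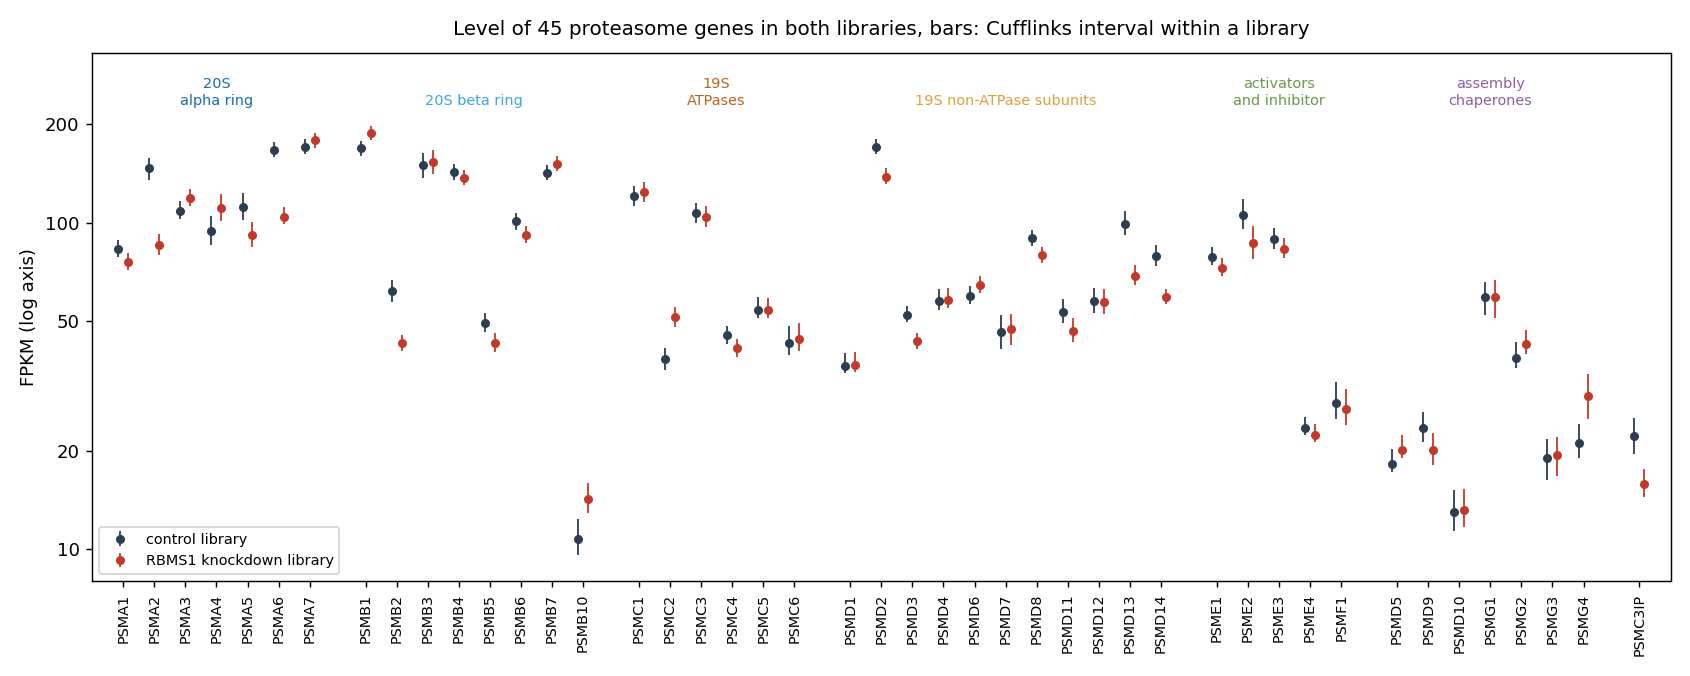
Level of each of the 45 proteasome genes in FPKM on a log axis, in the control library (dark) and the RBMS1 knockdown library (red), ordered by subcomplex. The bars are the within-library Cufflinks intervals. The libraries lie close together for most genes, with PSMA2, PSMA6, PSMB2, PSMD2, PSMD13 and PSMD14 among those lower with knockdown and PSMB10, PSMC2 and PSMG4 among those higher.

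The intervals within the libraries did not overlap for 15 of these genes, where 24.7% of all genes and 31.8% of those with at least 10 FPKM had separate intervals in either direction. Of the 45, 11 (24.4%) were lower with knockdown, where 11.5% of all genes and 14.1% of the genes with at least 10 FPKM had separate intervals in that direction. These were PSMA2, PSMA5, PSMA6, PSMB2, PSMB5, PSMC3IP, PSMD2, PSMD3, PSMD8, PSMD13 and PSMD14, or 10 of 44 (22.7%) without PSMC3IP. Higher values with separate intervals were found for 4 genes (8.89%), PSMB1, PSMB10, PSMC2 and PSMG4, against 13.3% of all genes and 17.8% of those with at least 10 FPKM. Separate intervals say that a difference exceeds the counting error as Cufflinks modelled it, and not that it would recur in another culture.

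Part of these differences depended on which transcripts Cufflinks had put together from the reads. Besides the reference transcripts, it listed assembled transcripts, and a short one turns the same number of fragments into a higher FPKM than a long one does. Each gene was therefore also given as a fragment abundance, the FPKM of each transcript times its length in kilobases, summed over the gene. It approximates the share of the library's fragments that fell on the gene, over short and long transcripts together. The full exon length was used, and the length by which Cufflinks had divided was not checked. If that length was shorter, the abundance is too high, which could weigh most on short transcripts. This measure was added after the FPKM values had been seen. By fragment abundance, 6 genes had separate intervals and lower values, namely PSMA6, PSMB5, PSMC3IP, PSMD2, PSMD3 and PSMD8, against 14.6% of all genes and 15.6% of those with at least 10 FPKM. PSMB1 and PSMB10 were higher, against 16.0% and 19.8%. All 8 were also separate by FPKM. The ratios lay within 0.25 of 0 on the log2 scale for 39 of 45 genes (86.7%) by fragment abundance and for 32 (71.1%) by FPKM. Of the genes with at least 10 FPKM, 69.1% and 65.9% lay in that band. The fragment abundances summed to 4472 with knockdown and 4713 in the control, a ratio of 0.949.

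By FPKM with reference and assembled transcripts, the alpha ring held both of the largest decreases, those of PSMA2 and PSMA6. By fragments PSMC3IP, at −0.46, came after PSMA6. With reference transcripts only, PSMG4 (−0.92) and PSME3 (−0.89) were lower than both. The 7 expressed subunits of the ring had a median log2 ratio of −0.13, with 4 lower and 3 higher, which turned to 0.063 with reference transcripts only. Their levels spanned 75.6 to 178 FPKM with knockdown and 82.8 to 171 FPKM in the control. PSMA6 was at 104 FPKM with knockdown (interval 98.7 to 112) and at 166 FPKM in the control (158 to 177), which is 62.6% of the control value and a log2 ratio of −0.67. The whole value came from 1 protein-coding transcript of 1029 bases, ENST00000261479, in both libraries, so the ratio was the same by reference transcripts and by fragment abundance. No other proteasome gene differed by as much by fragment abundance. PSMA6 lies on the forward strand of chr14:35278633-35317493 in GRCh38.

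PSMA6 is shown with its start site as the gene with the largest decrease by fragment abundance. Its value did not depend on the transcripts chosen, which also holds for other genes with a single transcript. A RefSeq promoter of PSMA6, which has another RefSeq start as well, held the ETS motif CCGGAAG once across its start and once after it. This is the core to which factors of the ETS family bind. Whether the motif bears on the decrease was not tested. In the windows below, which lie in GRCh38.p14 on the forward strand at chr14:35292369-35292397 and chr14:35292388-35292416, the motif is in capitals and the second copy reads on the reverse strand. Counting the first transcribed base as 0, the copies begin at positions −2 and 17. The transcript ENST00000261479 begins before both windows in the files, at position 35292357.
PSMA6 ETS copy at the start: cggctggtaccCCGGAAGcagtcgctgca
PSMA6 ETS copy after the start: agtcgctgcaaCTTCCGGgaggtgcttgt

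PSMA2 had the largest decrease by FPKM and a small one by fragments. It was at 85.7 FPKM with knockdown and 146 FPKM in the control, a log2 ratio of −0.77, but its fragment abundance was 102 and 117, a log2 ratio of −0.20 with overlapping intervals. Its full-length transcript of 1487 bases, ENST00000223321, was at 45.5 FPKM with knockdown and at 14.3 FPKM in the control. The control library had 59.2 FPKM on a reference transcript of 683 bases, ENST00000445517, which was listed at 0 with knockdown, and 73.0 FPKM on an assembled transcript of 759 bases. Thus the fragments of PSMA2 were laid on short transcripts in the control and largely on the long one with knockdown. The gene is overlapped by MRPL32 on the other strand, at 28.6 FPKM with knockdown and 28.5 FPKM in the control.

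The other alpha subunits differed less. PSMA5 was at 91.5 FPKM with knockdown and 112 FPKM in the control, a log2 ratio of −0.29, but its reference transcripts alone gave 0.42 and its fragments −0.11. Assembled transcripts carried 68.8% of its FPKM with knockdown and 81.2% in the control. PSMA1 was lower at 75.6 against 82.8 FPKM, with overlapping intervals. PSMA3, at 119 and 109 FPKM, PSMA4, at 111 and 94.2 FPKM, and PSMA7, the most abundant alpha subunit at 178 and 171 FPKM, were higher with knockdown, all with overlapping intervals. PSMA4 had the largest increase in the ring, with a log2 ratio of 0.23.

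The beta ring was balanced at a median log2 ratio of −0.01, or 0.06 with reference transcripts only, with 4 genes lower and 4 higher. The constitutive cutting subunits did not share a direction. PSMB5, which carries the chymotrypsin-like site targeted by bortezomib, was at 42.7 FPKM with knockdown (40.0 to 45.8) and 49.1 FPKM in the control (46.2 to 52.7), a log2 ratio of −0.20 by FPKM and by fragments. PSMB6, with the caspase-like site, was at 91.8 and 101 FPKM, and PSMB7, with the trypsin-like site, at 152 and 142 FPKM, both with overlapping intervals. PSMB5 was the lowest of the constitutive core subunits with knockdown and in the control.

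PSMB10, the immunoproteasome subunit that takes the place of PSMB7, was the lowest of the core and had the largest increase of the ring. It was at 14.3 FPKM with knockdown (12.96 to 16.0) and at 10.7 FPKM in the control (9.58 to 12.3), a log2 ratio of 0.38 by FPKM and by fragments alike, from the single transcript ENST00000358514. Its level was 9.41% of that of PSMB7 with knockdown and 7.55% in the control. Its immunoproteasome partners were at 37.8 and 36.6 FPKM for PSMB8 and at 30.2 and 28.1 FPKM for PSMB9, with log2 ratios of 0.05 and 0.10.

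Of the remaining beta subunits, PSMB1 was the most abundant proteasome gene with knockdown. It was at 188 FPKM (179 to 198) against 169 FPKM in the control (160 to 177), a log2 ratio of 0.16 by both measures, and ranked 214 of 11186 genes. PSMB2 was at 42.8 FPKM with knockdown and 61.9 FPKM in the control, a log2 ratio of −0.52. In the control, 46.2% of this value lay on an assembled transcript of 1053 bases, where the main reference transcript ENST00000373237 has 2701. Its reference transcripts alone were higher with knockdown, with a log2 ratio of 0.35, and its fragment abundance was 122 and 127, a log2 ratio of −0.06 with overlapping intervals. PSMB3 was at 153 and 150 FPKM and PSMB4 at 137 and 143 FPKM.

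The core subunits, which occupy the particle in equal numbers, were not at equal RNA levels. Without PSMB10 they spread from 42.7 to 188 FPKM with knockdown, a 4.41-fold range, and from 49.1 to 171 FPKM in the control, a 3.47-fold range. The coefficient of variation over these 14 genes was 40.3% with knockdown and 32.9% in the control. With PSMB10 it was 47.7% and 42.1%, and by fragment abundance 38.2% and 37.3%. The libraries were closer in spread by fragments. Fragment abundance also grows with transcript length, so its spread over genes does not measure the same thing as that of FPKM.

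The 6 ATPases of the 19S base, which form the unfolding ring, were also balanced. Their median log2 ratio was 0.02 and turned to −0.02 when the libraries were scaled to the same median, with 3 genes lower and 3 higher as deposited. By FPKM, PSMC1 was the most abundant, at 124 FPKM with knockdown and 120 FPKM in the control, followed by PSMC3 at 104 and 107 FPKM. Of the PSMC1 value, 60.2% with knockdown and 58.1% in the control lay on a retained-intron transcript of 606 bases, ENST00000555679. Its protein-coding transcript ENST00000543772 was at 49.3 and 50.5 FPKM. By fragment abundance PSMC3 was higher, at 147 and 151 against 114 and 112 for PSMC1. PSMC4, at 41.3 and 45.3 FPKM, had the lowest level with knockdown and the largest decrease. PSMC5 was at 53.9 and 54.2 FPKM and PSMC6 at 44.0 and 42.9 FPKM. The intervals of these 5 genes overlapped.

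PSMC2 was the exception in the ring. It was at 51.5 FPKM with knockdown (48.1 to 55.3) and 38.1 FPKM in the control (35.4 to 41.2), a log2 ratio of 0.43. Its reference transcript ENST00000292644 was lower with knockdown, at 19.6 against 22.6 FPKM. The remainder lay on an assembled transcript of 1490 bases with knockdown and on one of 1956 bases in the control. The fragment abundance of PSMC2 was 99.3 and 89.9, a log2 ratio of 0.14 with overlapping intervals.

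The 11 non-ATPase subunits of the 19S particle had a median log2 ratio of −0.17 by FPKM and −0.09 by fragments, with 7 lower and 4 higher by either measure, and a median of −0.01 with reference transcripts only. PSMD2, the scaffold that binds ubiquitin shuttles and the most abundant of them, was at 138 FPKM with knockdown (131 to 147) and 170 FPKM in the control (162 to 180). Its log2 ratio was −0.30 by FPKM and −0.32 by fragments, and both of its transcripts, ENST00000439383 and ENST00000310118, were lower. PSMD3, a subunit of the 19S lid, was at 43.3 FPKM (41.0 to 46.0) against 52.3 FPKM (49.6 to 55.5), a log2 ratio of −0.27 by both measures. PSMD8, also of the lid, was at 79.3 FPKM (75.2 to 84.5) against 89.4 FPKM (84.8 to 95.2), a log2 ratio of −0.17. These 3 decreases were modest but did not rest on assembled transcripts.

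The decreases of PSMD13 and PSMD14 were larger by FPKM but small by fragments. PSMD13, another lid subunit, was at 68.6 FPKM with knockdown and 99.3 FPKM in the control, a log2 ratio of −0.53. In the control, 39.0 FPKM of this were on ENST00000529372, a transcript of 612 bases annotated for nonsense-mediated decay and listed at 0 with knockdown. The protein-coding transcript ENST00000621534 was at 27.9 FPKM with knockdown and 19.8 FPKM in the control, and the fragment abundance of the gene was 105 and 115. PSMD14 is the enzyme that cuts ubiquitin chains off substrates at the entry, and its level was 59.2 FPKM with knockdown and 79.2 FPKM in the control, a log2 ratio of −0.41. Its reference transcript ENST00000409682 was higher with knockdown, at 59.2 against 48.7 FPKM, and its fragments gave a log2 ratio of −0.09. For both genes the intervals overlapped by fragment abundance.

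The other non-ATPase subunits had overlapping intervals. PSMD6, at 64.3 and 59.8 FPKM, had the largest increase, with a log2 ratio of 0.10. The scaffold PSMD1 had the lowest level, at 36.7 and 36.4 FPKM, while the ubiquitin receptor PSMD4 was at 58.0 and 57.4 FPKM and PSMD7, the partner of PSMD14, at 47.2 and 46.4 FPKM. PSMD12 was at 57.1 and 57.4 FPKM, and PSMD11, at 46.5 and 53.1 FPKM, had a log2 ratio of −0.19. PSMD1 and PSMD2 are related scaffolds of the 19S base, and PSMD2 was at 375% of the level of PSMD1 with knockdown and at 467% in the control.

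All 5 genes of the alternative activators and the inhibitor were lower by FPKM, with a median log2 ratio of −0.10, and none had separate intervals. PSME1 and PSME2 encode the interferon-inducible PA28 ring and lie 4.39 kb apart on opposite strands of chromosome 14. PSME1 was at 72.7 FPKM with knockdown and 78.6 FPKM in the control, and PSME2 at 86.4 and 106 FPKM, the largest decrease of the group by FPKM with a log2 ratio of −0.29. For PSME2 this was −0.18 by fragments and −0.13 with reference transcripts only. PSME3, which forms the nuclear PA28 ring, was at 83.1 and 88.9 FPKM. By fragment abundance it was slightly higher with knockdown, at 170 against 167, while its reference transcripts alone gave a log2 ratio of −0.89. The large activator PSME4 was the lowest of the group at 22.4 and 23.5 FPKM, and the inhibitor PSMF1 was at 26.9 and 28.1 FPKM.

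The 7 assembly chaperones had the lowest median level of the subcomplexes, at 20.2 FPKM with knockdown and 21.2 FPKM in the control. Of these, 6 were higher with knockdown by FPKM and 5 by fragments, with median log2 ratios of 0.03 and 0.06, although the former was about 0 (2.98e-05) when the libraries were scaled to the same median. PSMG1 and PSMG2, which pair to guide the alpha ring, were at 59.1 and 59.0 FPKM and at 42.4 and 38.6 FPKM. Of the PSMG1 value, 52.1% with knockdown and 58.0% in the control lay on a retained-intron transcript, ENST00000481921. Only 15.0% and 18.5% lay on protein-coding reference transcripts. PSMG3, of the second pair that guides the alpha ring, was at 19.4 and 18.97 FPKM. Its partner PSMG4 had the largest increase of all proteasome genes, at 29.4 FPKM with knockdown (25.04 to 34.5) and 21.2 FPKM in the control (18.99 to 24.2), a log2 ratio of 0.45. Of the knockdown value, 63.6% lay on an assembled transcript of 571 bases, whereas the reference transcript ENST00000438998 was at 9.33 FPKM with knockdown and 19.7 FPKM in the control. Its reference transcripts gave a log2 ratio of −0.92 and its fragments 0.07, so no direction for PSMG4 held across the measures.

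The chaperones of the 19S base did not share a direction. PSMD5 was at 20.2 and 18.3 FPKM, PSMD10, also known as gankyrin, at 13.2 and 13.01 FPKM, and PSMD9 at 20.1 and 23.5 FPKM, each with overlapping intervals. PSMD9 had the largest decrease of the chaperones, with a log2 ratio of −0.22, and most of its FPKM, 82.0% with knockdown and 79.2% in the control, lay on a transcript annotated for nonsense-mediated decay. PSMD10 had the lowest level of the 45 genes with knockdown. PSMC3IP, the gene that shares only the symbol, was at 15.8 FPKM (14.5 to 17.6) against 22.2 FPKM (19.6 to 25.2), a log2 ratio of −0.46. Its transcript ENST00000587209 was listed at 0 with knockdown and at 9.49 FPKM in the control, while ENST00000393795 was at 15.8 and 12.7 FPKM.

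These genes could be sorted by whether Cufflinks had assembled a transcript for them. The 34 genes without one split evenly by FPKM, 17 lower and 17 higher, with a median log2 ratio of −0.0024 and a summed ratio of 0.960. With separate intervals, 7 of them (20.6%) were lower and 2 (5.88%) higher, against 14.1% and 17.8% of genes with at least 10 FPKM. Of the 11 genes with one, 8 were lower, with a median of −0.19 and a summed ratio of 0.825. The ratio of summed fragment abundances was 0.949 in both groups. By fragment abundance those 11 genes ran from −0.20 to 0.14, and none had separate intervals. The most abundant transcript was the same reference transcript in both libraries for 38 genes and an assembled one in both for PSMA5, PSME2 and PSMF1. It was another one in each library for PSMA2, PSMA4, PSMC2 and PSMG4. In 8 genes, among them PSMA2, PSMD13, PSME3 and PSMC3IP, a reference transcript was listed at 0 in one library and at 5 FPKM or more in the other. An exact 0 can be a failed estimate, so these are not read as absent. Whether the knockdown or the assembly of each library gave these transcript differences was not tested. Of the 47 genes, 12 are overlapped by a gene on the opposite strand, such as PSMA3 by PSMA3-AS1 and PSME3 by BECN1. The strand of the libraries is not given in the sources used here, so reads of such pairs could be shared.

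Genes that work with the proteasome but fall outside the symbol rule were taken from a list of 38, of which 37 passed the filter, with 22 lower and 15 higher and a median log2 ratio of −0.06. None was 2-fold lower and 2 were 2-fold higher, where 2.80% of all genes were 2-fold lower and 2.96% higher. SEM1, a small subunit of the 19S lid, was at 120 FPKM with knockdown and 28.5 FPKM in the control, a log2 ratio of 2.04. POMP, the chaperone that helps to join the precursor parts of the core, had 141 FPKM with knockdown and 55.5 FPKM in the control, for a log2 ratio of 1.33. In the knockdown library, 98.9 FPKM of SEM1 lay on an assembled transcript of 330 bases and 110 FPKM of POMP on one of 456 bases. No such transcript was listed for either gene in the control. The reference transcripts alone were lower with knockdown, with log2 ratios of −0.40 for SEM1 and −0.82 for POMP. By fragment abundance the log2 ratios were 0.68 and 0.30, short of a 2-fold difference but still with separate intervals. SEM1 was at 60.7 (54.5 to 68.4) against 37.4 (34.7 to 41.8) and POMP at 91.3 (84.2 to 98.3) against 73.8 (69.5 to 78.2). These abundances use the full length of the short transcripts listed only with knockdown. How far this choice of length gave the differences was not tested.

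**Figure D2:**
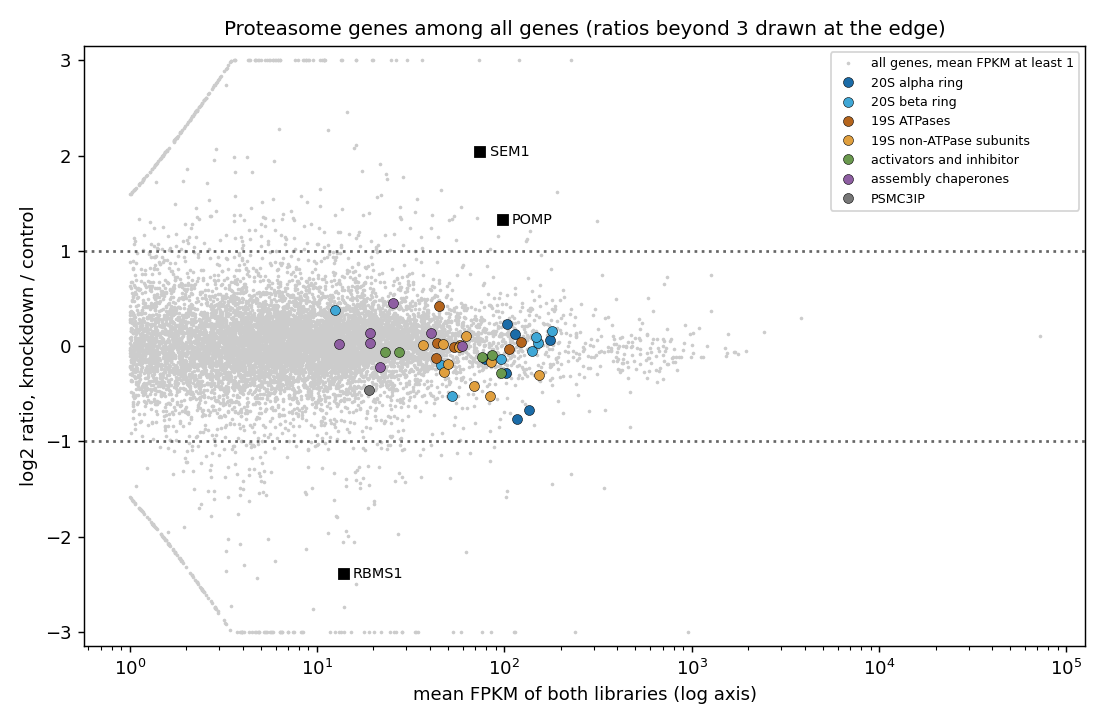
Log2 ratio of knockdown over control against the mean FPKM of both libraries on a log axis, for the 11186 genes with a mean of at least 1 FPKM (grey) and for the 45 proteasome genes, coloured by subcomplex. RBMS1, POMP and SEM1 are marked with black squares and dotted lines mark a 2-fold difference. The proteasome genes lie at high levels and between −0.77 and 0.45.

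The main regulators of proteasome genes had overlapping intervals. NFE2L1, the factor that raises subunit genes when the proteasome is inhibited, was at 30.3 FPKM with knockdown and 33.8 FPKM in the control. NFE2L2, which drives the antioxidant response, was at 32.2 and 35.7 FPKM, and both had a log2 ratio of −0.15. DDI2, the protease that activates NFE2L1, was at 4.25 and 4.47 FPKM, and NGLY1, the enzyme that removes its sugars, at 10.9 and 10.4 FPKM. Of their small MAF partners, MAFF, named here after its values were seen, was at 9.10 FPKM (8.25 to 10.3) against 12.9 FPKM (11.9 to 14.2), a log2 ratio of −0.46 by FPKM and −0.43 by fragments, with separate intervals by both. MAFG, at 12.8 and 13.5 FPKM, and MAFK, at 4.49 and 5.28 FPKM, had overlapping intervals. The unfoldase VCP was at 81.1 and 77.7 FPKM and the ubiquitin receptor ADRM1 at 65.6 and 60.0 FPKM. For VCP, 45.1% of the knockdown value lay on assembled transcripts. Its log2 ratio was 0.06 by FPKM, −0.05 by fragments and −0.79 with reference transcripts only. Of the deubiquitinases that bind the particle, USP14 was at 26.9 FPKM (24.96 to 29.3) against 32.1 FPKM (29.9 to 34.9). Its log2 ratio was −0.25 by FPKM and −0.36 by fragments, with separate intervals by both. UCHL5 was at 6.71 and 7.14 FPKM, with overlapping intervals.

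The antioxidant response element, to which NFE2L1 and NFE2L2 bind with small MAF proteins, was looked for in the RefSeq promoters of GRCh38.p14, which run from 250 bases before to 50 bases after the start. A promoter was found for 41 of the 47 genes. PSMA7, PSMB1, PSMB6, PSMB7, PSMD4 and PSMG3 were not matched. The core TGACNNNGC, on either strand, was in 14 of the 41 (34.1%), against 16.1% of all 27305 genes with a promoter and 17.9% of the 15843 protein-coding ones. The ETS motif CCGGAAG was in 16 (39.0%), against 12.2% and 16.5%. CCAAT was in 20 (48.8%), against 39.7% and 42.1%, and the GC box GGGCGG in 28 (68.3%), against 48.3% and 64.3%. Of the 3 other motifs searched, the TATA box TATAAA was in 5 (12.2%), against 14.0% and 12.4%, the nuclear respiratory factor core GCATGCGC in 2 (4.88%), against 3.68% and 4.89%, and the YY1 motif in 1 (2.44%), against 1.04% and 1.58%. All 7 were searched on both strands. A gene was counted when any of its RefSeq starts had a match, and such a start need not be one used by the transcripts measured here. In PSMA4 the antioxidant match lies after the starts of its 3 expressed transcripts. Matches of the antioxidant and ETS motifs shared no bases in any of these promoters, while ETS and GC box matches did so in 3. A match is a run of letters and not a bound site.

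The following windows show the antioxidant motif, in capitals, in genes of the core, the lid and the ATPase ring. These matches lie before the first base of every transcript listed for these genes at 1 FPKM or more. The windows run along the strand of each gene, at chr17:38752627-38752655 (forward), chr17:67366724-67366752 (reverse), chr17:39980760-39980788 (forward) and chr17:63827654-63827682 (forward), in that order. PSMD3 has a further match after its start, and in PSMC5 the motif reads on the opposite strand.
PSMB3: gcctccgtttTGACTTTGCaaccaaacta
PSMD12: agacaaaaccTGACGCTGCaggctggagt
PSMD3: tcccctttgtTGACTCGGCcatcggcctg
PSMC5: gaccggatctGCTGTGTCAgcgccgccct

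The 14 genes with this motif were all above the filter and had a median log2 ratio of −0.01 by FPKM and by fragments, with 8 lower by either measure. The other 25 genes with a promoter and a level above the filter had medians of −0.10 and −0.06, with 16 lower. In the 4 genes whose windows are printed, the log2 ratio of FPKM was 0.03 for PSMB3, −0.01 for PSMD12, −0.27 for PSMD3 and −0.01 for PSMC5. The 15 expressed genes with the ETS motif, PSMA6 included, had a median of −0.06 by FPKM and −0.07 by fragments, and the 24 without it −0.08 and −0.05, so the order of the groups depended on the measure.

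Other large complexes gave a measure of how closely such genes stayed together. The 82 genes of the cytosolic ribosome had a median log2 ratio of −0.07, with 59 lower and none at 2-fold. The 73 genes of the mitochondrial ribosome had a median of 0.02, with 3 at 2-fold lower and 1 higher, and the 35 genes of respiratory complex I a median of 0.05, with 1 in each direction. By fragment abundance, the mitochondrial ribosome and complex I each had 1 gene at 2-fold lower and none higher. The proteasome genes had a standard deviation of log2 ratios of 0.26 by FPKM and 0.18 by fragment abundance. These values were 0.17 and 0.13 for the cytosolic ribosome. The standard deviations of the other complexes are not set beside them, since each holds at least 1 gene listed at 0 with knockdown, with log2 ratios down to −6.14 and −4.14. The middle part of each set, from the lower to the upper quartile of log2 ratios of FPKM, ran from −0.20 to 0.04 for the proteasome, from −0.13 to 0.01 for the cytosolic ribosome, from −0.11 to 0.13 for the mitochondrial ribosome and from −0.06 to 0.20 for complex I. No test of these differences was made, since the genes are not replicates.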

How the data were processed

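RNA-seq was analysed from 2 libraries of MDA-MB-231 cells, 1 with RBMS1 knockdown and 1 control, grouped by their labels. The authors deposited, for each library, a Cufflinks transcript list with the FPKM of each transcript, its 95% interval and its coverage. The submitters' processing notes name Bowtie2 2.0.6, TopHat2 2.0.9, Cufflinks 2.1.1 and Cuffdiff 2.1.1. The genome build and annotation are not given in the sources used here, but 98.1% of matched reference transcripts began at the GENCODE release 29 position on GRCh38. The authors' comparison table, which holds log2 fold changes, p-values and q-values, was not used.

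The FPKM of a gene was summed over its reference transcripts and those assembled transcripts of its strand that had 1 or more introns in common with it. Reference transcripts with Ensembl identifiers define the genes, and values from them alone are given as an alternative. The deposited values carry no read counts, so no count model was run. Genes whose mean FPKM reached 1 were compared as log2 ratios with a pseudocount of 1 FPKM, and called at 2-fold. Summing was tested on simulated data in which each assembled copy had the same exons as its reference transcript. Assembled transcripts of another length were not covered by it. Python 3.11.15 was used with numpy 2.4.6, pandas 2.3.3 and matplotlib 3.10.9. All genes of the symbol rule are named, with intervals and transcripts for the extremes of each subcomplex, the cutting subunits and genes with separate intervals. Members, lists and motifs were chosen with earlier results of these data known.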

Additional observations from a re-analysis of the deposited data

Results flagged for a closer look

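Assembled transcripts that shared no intron with any gene were not counted for the proteasome genes. Within the PSMA6 locus they summed to 3.82 FPKM in the knockdown library, from 5 transcripts, and to 1.72 FPKM in the control library, from 3. This was picked out because it is a signal outside the values reported for PSMA6 and is above the control level. It is small beside the 104 and 166 FPKM of PSMA6. Within PSMF1 such transcripts went the other way, at 0.849 FPKM with knockdown and 2.69 FPKM in the control, from 3 transcripts each, beside 26.9 and 28.1 FPKM of the gene. With 1 library per group the difference was not tested, and its source was not tested.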

How the results depend on the processing

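With 1 library per group, all values describe these libraries only, and the number of reads and the variation between cultures are unknown. No paired analysis was possible because each group has 1 library and the values come from no test. Of the main results recomputed under the alternatives, 161 stayed within the intervals of the libraries, or within 1.5 times for counts and 1.1 times for level spreads, and 15 did not. Of the single-gene ratios, 525 stayed within their interval, 22 of them crossing 0, and 9 did not. A further 16, of genes with separate intervals or a 2-fold difference, changed sign. With reference transcripts only, the log2 ratio changed sign to 0.42 for PSMA5, 0.35 for PSMB2, −0.19 for PSMC2, 0.28 for PSMD14, −0.92 for PSMG4, −0.82 for POMP and −0.40 for SEM1. With the most abundant reference transcript only, it became 1.60 for PSMA2, 0.42 for PSMB2, −0.19 for PSMC2, 0.30 for PSMC3IP, 0.0060 for PSMD13, 0.28 for PSMD14, −1.001 for PSMG4, −0.82 for POMP and −0.40 for SEM1, with 1 proteasome gene 2-fold lower (PSMG4) and 1 higher (PSMA2). The alpha ring median became 0.063 under both. A pseudocount of 5 FPKM gave −1.73 for RBMS1. By fragment abundance (FPKM times length), an alternative chosen after seeing the data, 6 genes were lower and 2 higher with separate intervals. The coefficient of variation over the 15 core genes (47.7% with knockdown, 42.1% in the control) was 63.0% and 58.4% with unfiltered genes, 56.6% and 54.6% with reference transcripts, 62.8% and 66.3% with the most abundant one, and 38.2% and 37.3% by fragment abundance. These alternatives differ by construction in which transcripts are counted and per which length.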
